A study of Mus musculus with 4 samples.

Results

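The genes described here are 10 astrocyte and gliosis genes, *Gfap*, *Aqp4*, *Slc1a2*, *Slc1a3*, *Aldh1l1*, *S100b*, *Gja1*, *Glul*, *Sox9* and *Agt*. They were taken as a fixed list of gene symbols out of the 16339 genes with counts, after the RefSeq transcripts of each symbol had been added up. All 10 had counts in every library and all 10 entered the test. The list was drawn up for the cell type, with no value of these libraries in its rule, but earlier results of these data were known when it was chosen.

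Hypothalamus of male C57BL/6 mice was profiled by RNA sequencing. Conventional *Tas1r3*-/- mice lack the sweet and umami taste receptor subunit TAS1R3 in every tissue from birth. They were set against WT littermates that had been matched in age and weight. The study reports that *Tas1r3*-/- mice on the western diet then gained less weight than WT mice on it. The part of body weight in any result was not tested. Every mouse in the libraries used here received the western diet (WD), a 60% fat diet with a 30% sucrose solution, for 12 weeks, so each comparison is of genotype under WD, and mice on a normal diet were not analysed here. There were 2 libraries of WT WD and 2 of *Tas1r3*-/- WD. The study's methods describe more mice per group for sequencing than there are libraries here. The sources used here do not say that each library came from 1 animal, and the p-values measure only the spread between these libraries, which may be technical in part. Library totals lay between 5874782 and 6273772 estimated counts, and levels are given as CPM (counts scaled to the size of the library, with TMM factors). In these bulk libraries, the number of astrocytes, the RNA of a gene in each astrocyte and its RNA from other cells cannot be told apart. This holds for the lists of astrocyte and reactive astrocyte genes below too.

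Astrocytes take up glutamate and potassium released by neurons, return glutamine to them, line blood vessels with endfeet that carry water channels, and are joined to each other by gap junctions. In injury or inflammation they enlarge and make more of the filament protein GFAP, a response called reactive gliosis, in which signalling through STAT3 takes part. A high-fat diet is known for gliosis of the hypothalamus in rodents, where astrocytes and microglia of the arcuate nucleus respond early to the diet.

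*Tas1r3*, the targeted gene, had 35.3 and 27.0 estimated counts in the WT WD libraries and 7 and 7.01 in the *Tas1r3*-/- WD libraries, lower in both libraries labelled as knockout (adjusted p by edgeR 0.756). Regional markers went against the tissue label in 1 library. In the library labelled WT WD replicate 2, all 12 hypothalamic neuropeptide genes on a marker list were at their lowest, with a summed level of 64.4 CPM against 1432 to 2048 CPM in the other libraries. In the same library 7 of 8 thalamus markers were at their highest, with a sum of 2166 CPM against 335 to 527 CPM. Its 6 choroid plexus markers summed to 762 CPM against 39.6 to 58.7 CPM, and *Ttr* alone held 678 CPM of this. Of the 6, 4 were at their highest there, whereas *Clic6* (33.3 CPM) and *Kl* (12.0 CPM) were not. Its 5 red blood cell genes summed to 1959 CPM against 380 to 769 CPM. In *Tas1r3*-/- WD replicate 1, 6 pituitary hormone genes summed to 1449 CPM, against 1.81 to 14.6 CPM elsewhere, and 5 of the 6 were at 0 in at least 1 library. The fold changes of the 10 genes and of the genes and lists around them are therefore given with the library labelled WT WD replicate 2 and without it, whereas those of single transcripts are given with all 4 libraries only. The part of this library's makeup in any result was not tested beyond that.

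The 10 genes together held between 0.358 and 0.430% of the counts of a library. They summed to 3908 CPM in WT WD replicate 1, 3626 CPM in the library labelled WT WD replicate 2, 4268 CPM in *Tas1r3*-/- WD replicate 1 and 4104 CPM in replicate 2. The *Tas1r3*-/- WD sums lay above the WT WD sums, and the gap between the nearest sums of the 2 genotypes was smaller than the gap between the WT WD libraries. A further 34 genes known for astrocytes, among them *Apoe* and *Sparcl1*, summed to 18432, 17904, 17238 and 18091 CPM in the same order, with overlapping groups. For comparison, microglial markers summed to between 346 and 414 CPM, endothelial markers to between 243 and 274 CPM, and oligodendrocyte markers to between 5120 and 6357 CPM.

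**Figure D1:**
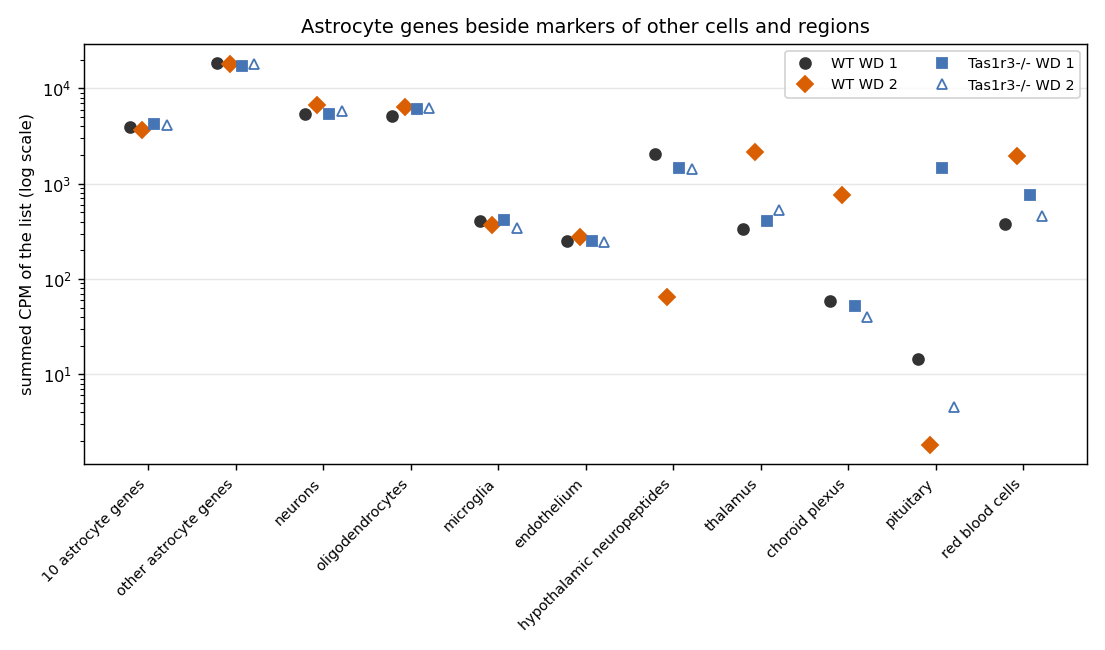
Summed CPM (log axis) of the 10 astrocyte genes and of marker lists for other cells and regions, with 1 symbol for each library. The 10 genes sit between 3626 and 4268 CPM in all libraries, whereas hypothalamic, thalamic, choroid plexus and red blood cell sums of the library labelled WT WD replicate 2 (orange) stand away from the other 3, and pituitary genes are high in *Tas1r3*-/- WD replicate 1 alone.

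Levels of different genes were compared per kilobase of the longest annotated transcript. *Glul*, glutamine synthetase, had the highest median level over libraries, at 371 CPM per kb, followed by *Slc1a3* at 152 CPM per kb. *Gfap*, *S100b* and *Slc1a2* followed at 92.8, 92.5 and 77.0 CPM per kb, and *Gfap*, which ran from 58.0 to 114 CPM per kb over libraries, overlapped with its neighbours on both sides. *S100b* (84.9 to 96.1 CPM per kb) and *Slc1a2* (62.1 to 80.8 CPM per kb) did not overlap. *Agt*, whose highest library overlapped with the lowest of *Slc1a2*, stood at 60.9 and *Gja1* at 39.03 CPM per kb. The lowest levels were those of *Aqp4* at 18.3, *Sox9* at 13.5 and *Aldh1l1* at 11.4 CPM per kb, and the ranges of *Sox9* and *Aldh1l1* over libraries overlapped. With the length of the canonical transcript in place of the longest, *Aldh1l1* stood above *Sox9*, at 16.4 against 13.5 CPM per kb, and *Gfap* at 103 CPM per kb stayed above *S100b* and *Slc1a2*.

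Between genotypes, none of the 10 genes passed the rule applied to all genes, which asks for a change of at least 1.5-fold with an adjusted p below 0.05. By edgeR's quasi-likelihood test, 0 of 10 were called, where 0% of the 14344 genes tested were called, and DESeq2 also called 0 of 10, where it called 0.0558% of all genes. At an unadjusted p under 0.05 there was 1 gene, *Sox9*, where 5.38% of all genes fell under it. The mean was higher in *Tas1r3*-/- WD for 7 genes, where it was so for 49% of all genes, and lower for 3, and no fold change reached 1.5, where 11.6% of all genes did. The median log2 fold change of *Tas1r3*-/- WD over WT WD was 0.04 for the 10 genes and -0.01 over all genes tested, and the median size of the change was 0.21 and 0.20. Groups did not overlap for *Slc1a2* and *Glul*, higher in *Tas1r3*-/- WD, nor for *Aldh1l1* and *Sox9*, lower there, where 20.6% of all genes lay above and 19% below. For the other 6 the groups overlapped.

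**Figure D2:**
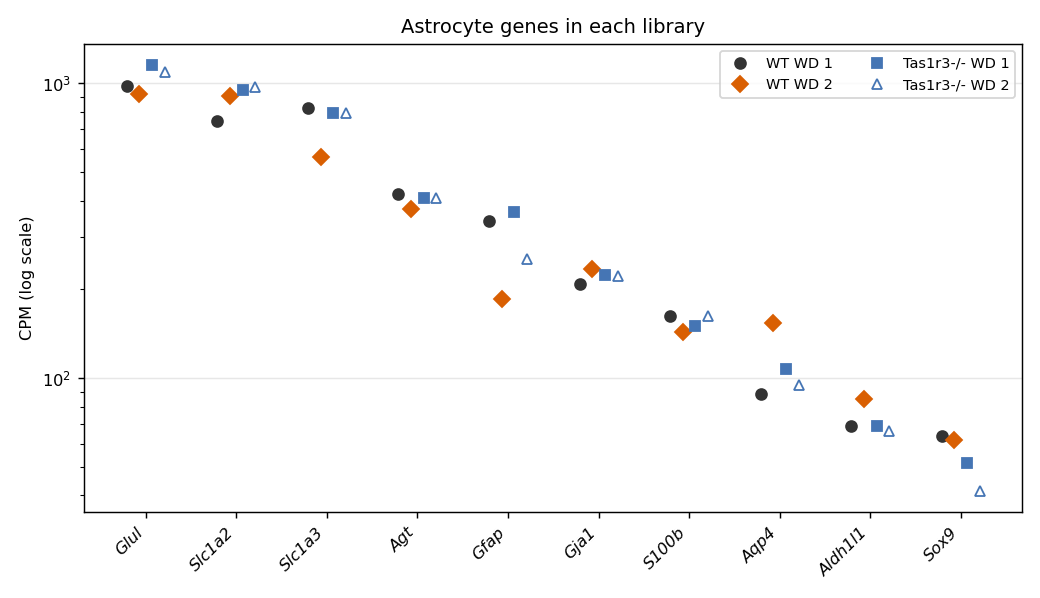
CPM (log axis) of each of the 10 astrocyte genes, with 1 symbol for each library. *Glul* and *Slc1a2* are higher and *Sox9* and *Aldh1l1* lower in both *Tas1r3*-/- WD libraries (blue), and the library labelled WT WD replicate 2 (orange) is lowest for *Gfap* and *Slc1a3* and highest for *Aqp4* and *Aldh1l1*.

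*Gfap* (ENSMUSG00000020932), the intermediate filament of astrocytes and the gene most often read as a sign of gliosis, lies on the minus strand of chr11:102778159-102791738 in GRCm39. It stood at 340 CPM in WT WD replicate 1 and 186 CPM in the library labelled WT WD replicate 2. In *Tas1r3*-/- WD it stood at 365 and 254 CPM. The groups overlapped, and the difference within each genotype was larger than the difference between the means. Its log2 fold change came to 0.23 (standard error, SE, 0.35, and 95% interval -0.66 to 1.13), with an adjusted p of 0.865 by edgeR. Without the library labelled WT WD replicate 2 it was -0.14 (adjusted p by edgeR 0.771), with the sign turned. Against that library alone, that is, without WT WD replicate 1, it was 0.74 (adjusted p by edgeR 0.0198) and passed the rule, so the value for *Gfap* turned on which WT WD library was used. In that fit 14.3% of all genes were called. Without *Tas1r3*-/- WD replicate 1 the log2 fold change of *Gfap* was -0.05, and without *Tas1r3*-/- WD replicate 2 it was 0.47. The value thus turned on the *Tas1r3*-/- WD library used as well. The transcript of the main GFAP protein, NM_010277, held at least 93.2% of the gene's estimated counts in every library. The alternative transcript NM_001131020 held 5.3 and 5.0% in the WT WD libraries and 6.0 and 6.8% in *Tas1r3*-/- WD. By level, NM_001131020 had a log2 fold change of 0.51 (SE 0.42, adjusted p by edgeR 0.944), and the difference in share was not tested.

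Promoter sequence was looked up for *Gfap*, *Agt* and *Slc1a3*, because *Gfap* and *Agt* are genes that STAT3 is known to act on and because *Slc1a3* was low together with *Gfap* in the library labelled WT WD replicate 2. Each is 280 bases of GRCm38.p6 from RefSeq, 5′ to 3′ on the gene's strand, from 250 bases before the annotated start to 30 after it. Capitals mark TTCCNGGAA (a form of the letters bound by STAT factors, and the only form searched), TATAAA and CCAAT on either strand. A RefSeq promoter entry was found for 8 of the 10 genes.
Gfap, chr11:102897171-102897450, minus strand: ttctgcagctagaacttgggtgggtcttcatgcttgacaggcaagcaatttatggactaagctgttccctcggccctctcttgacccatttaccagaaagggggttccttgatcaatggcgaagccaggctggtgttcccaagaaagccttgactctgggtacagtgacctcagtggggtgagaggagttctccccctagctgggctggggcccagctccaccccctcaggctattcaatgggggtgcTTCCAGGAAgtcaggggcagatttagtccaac
Agt, chr8:124569677-124569956, minus strand: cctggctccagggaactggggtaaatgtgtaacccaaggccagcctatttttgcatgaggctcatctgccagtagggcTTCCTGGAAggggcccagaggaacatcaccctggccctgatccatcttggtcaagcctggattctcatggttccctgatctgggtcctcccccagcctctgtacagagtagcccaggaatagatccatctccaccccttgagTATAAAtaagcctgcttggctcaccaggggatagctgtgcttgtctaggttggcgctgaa
Slc1a3, chr15:8710778-8711057, minus strand: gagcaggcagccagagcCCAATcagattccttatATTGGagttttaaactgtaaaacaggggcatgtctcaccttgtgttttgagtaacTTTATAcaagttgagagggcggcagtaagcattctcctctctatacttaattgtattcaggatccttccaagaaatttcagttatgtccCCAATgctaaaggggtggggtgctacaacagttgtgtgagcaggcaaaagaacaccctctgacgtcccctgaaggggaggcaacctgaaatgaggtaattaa
TTCCNGGAA was found in 2 of the 8 windows, across the start site of *Gfap* (bases -2 to 7, counted from the start with no base 0) and at bases -172 to -164 of *Agt*, whereas 1.07% of 32851 RefSeq promoter windows of that length held it. TATAAA was found in *Agt* at bases -30 to -25 and, as TTTATA, in *Slc1a3*, with 13.1% of all windows holding it. CCAAT was found in 4 of the 8, in *Slc1a3*, *Aldh1l1*, *S100b* and *Glul*, with 36.1% of all windows holding it. TTGGCA, a motif of nuclear factor I, was found in *S100b* (13.4% of all windows) and overlaps a CCAAT there, and AACAAT, a SOX motif, was found in 0 of 8 (10.3% of all windows). A match is a string of letters in this window and no measure of binding.

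*Aqp4* (ENSMUSG00000024411, chr18:15522451-15544039, minus strand, GRCm39), the water channel of astrocyte endfeet, was the gene that moved furthest in the other direction from *Gfap* in the library labelled WT WD replicate 2. It stood at 88.6 CPM in WT WD replicate 1 and 154 CPM in the library labelled WT WD replicate 2. In *Tas1r3*-/- WD it stood at 107 and 94.9 CPM, between the WT WD libraries. The fold change on the log2 scale was -0.27 (SE 0.29, 95% interval -1.01 to 0.48, adjusted p by edgeR 0.818). It was 0.19 without the library labelled WT WD replicate 2 (adjusted p by edgeR 0.509) and -0.61 without WT WD replicate 1 (adjusted p by edgeR 0.00480). The mean of *Aqp4* was thus lower in *Tas1r3*-/- WD with all 4 libraries and higher without that library.

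The counts of *Aqp4* were spread over 8 RefSeq transcripts. NM_009700 and NM_001317729 had the same estimate in every library, so the counts do not tell them apart. NM_001308647 stood at 53.1 and 36.4 estimated counts in WT WD, and at 217 in *Tas1r3*-/- WD replicate 1 and 54.1 in replicate 2. It held 32.6% of the gene's counts in *Tas1r3*-/- WD replicate 1 and 3.9 to 10.3% in the other libraries. As a feature of its own among 25699 transcripts it had a log2 fold change of 1.55 (SE 0.70, adjusted p by edgeR 0.939), and the difference rested on 1 library, the one with high pituitary hormone genes. The part of pituitary RNA in it was not tested. None of the 22 transcripts of the 10 genes passed the rule in that fit, which called 0 transcripts.

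Glutamate uptake by astrocytes rests mainly on 2 transporters. *Slc1a2* (ENSMUSG00000005089, chr2:102488574-102621129, plus strand) codes for GLT-1, which carries most glutamate uptake of the forebrain. It stood at 746 CPM in WT WD replicate 1 and 904 CPM in the library labelled WT WD replicate 2. Both *Tas1r3*-/- WD libraries were above these, at 949 and 972 CPM. On the log2 scale the fold change was 0.22 (SE 0.15, 95% interval -0.17 to 0.61, adjusted p by edgeR 0.762). Without the library labelled WT WD replicate 2 it was 0.36 (SE 0.08, 95% interval 0.19 to 0.54), with an unadjusted p of 8.02e-04 and an adjusted p of 0.108 by edgeR, the smallest adjusted p of the 10 genes in that fit. Leaving out each library in turn gave values between 0.09 and 0.36, all of 1 sign, which follows from groups that do not overlap. *Slc1a2* has the longest transcript of the 10 genes (12025 bases). Over all genes, the median log2 fold change was 0.12 for the 3489 genes with the longest transcripts and -0.12 for the 3492 with the shortest, and the part of this shift in the value of *Slc1a2* was not tested.

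*Slc1a3* (ENSMUSG00000005360, chr15:8663604-8741595, minus strand), which codes for GLAST, the transporter of radial glia and astrocytes, followed another pattern. It stood at 827 CPM in WT WD replicate 1 and 561 CPM in the library labelled WT WD replicate 2. In *Tas1r3*-/- WD it stood at 792 and 795 CPM, so 3 libraries lay within a narrow range and 1 lay below. This gave a log2 fold change of 0.19 (SE 0.22, adjusted p by edgeR 0.821), -0.06 without the low library (adjusted p by edgeR 0.782) and 0.51 against it alone (adjusted p by edgeR 0.00237, under a fold change of 1.5). The ratio of *Slc1a2* to *Slc1a3* CPM was 0.903 and 1.61 in the WT WD libraries and 1.20 and 1.22 in *Tas1r3*-/- WD. The WT WD libraries thus held both the lowest and the highest ratio.

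*Glul* (ENSMUSG00000026473, chr1:153775690-153785469, plus strand) codes for glutamine synthetase, which turns the glutamate taken up into glutamine. It stood at 982 and 923 CPM in WT WD and at 1151 and 1089 CPM in *Tas1r3*-/- WD, without overlap, a log2 fold change of 0.23 (SE 0.13, 95% interval -0.10 to 0.57, adjusted p by edgeR 0.756). Without the library labelled WT WD replicate 2 it was 0.19 (adjusted p by edgeR 0.314), and over all 4 ways of leaving out 1 library it lay between 0.19 and 0.29. *Slc1a2* and *Glul*, both steps of glutamate clearance, were thus the genes of the 10 that were higher in both *Tas1r3*-/- WD libraries, and neither difference was called.

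**Figure D3:**
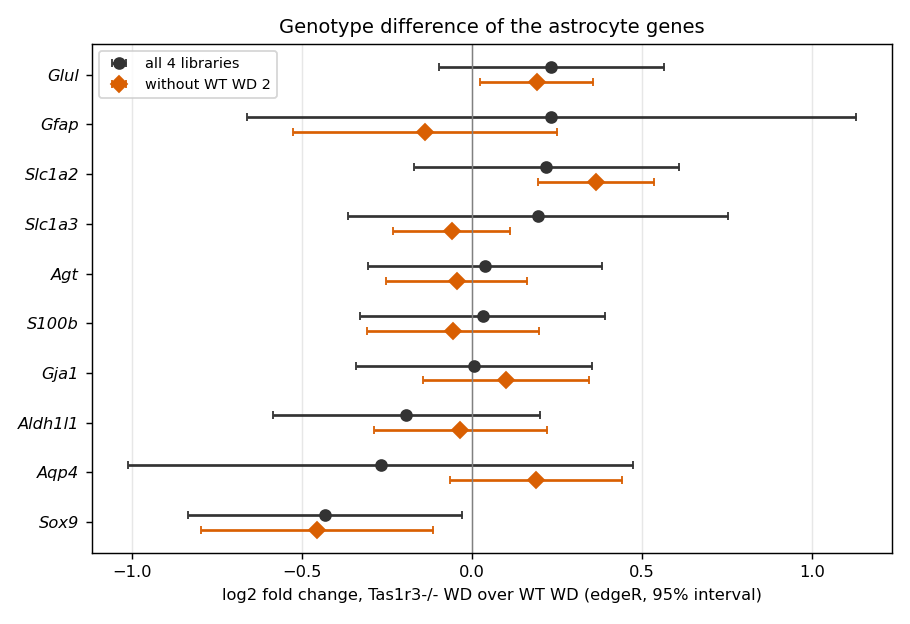
Log2 fold change of *Tas1r3*-/- WD over WT WD for the 10 astrocyte genes by edgeR, with 95% intervals (bars), over all 4 libraries (black) and without the library labelled WT WD replicate 2 (orange). *Gfap* and *Aqp4* have the widest intervals with 4 libraries and change sign without that library, whereas *Sox9* is -0.43 and -0.46.

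*Slc1a2* was listed as 4 transcripts, of which NM_001077515 and NM_001077514 held nearly all counts. NM_001077514 held 46.7 and 27.1% of the gene's estimated counts in the WT WD libraries, and 42.0 and 37.9% in *Tas1r3*-/- WD. The share was lowest in the library labelled WT WD replicate 2, where NM_001077515 held 72.6%, against 52.8 to 60.9% in the other libraries. By level, the log2 fold change was 0.36 (SE 0.21) for NM_001077514 and 0.11 (SE 0.27) for NM_001077515, with adjusted p of 0.939 and 0.989 by edgeR. *Aldh1l1* also had an alternative transcript, NM_001356412, whose share was 58.1 and 46.3% in the WT WD libraries and 58.1 and 51.1% in *Tas1r3*-/- WD, again lowest in the library labelled WT WD replicate 2. The shares of neither gene separated the genotypes.

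**Figure D4:**
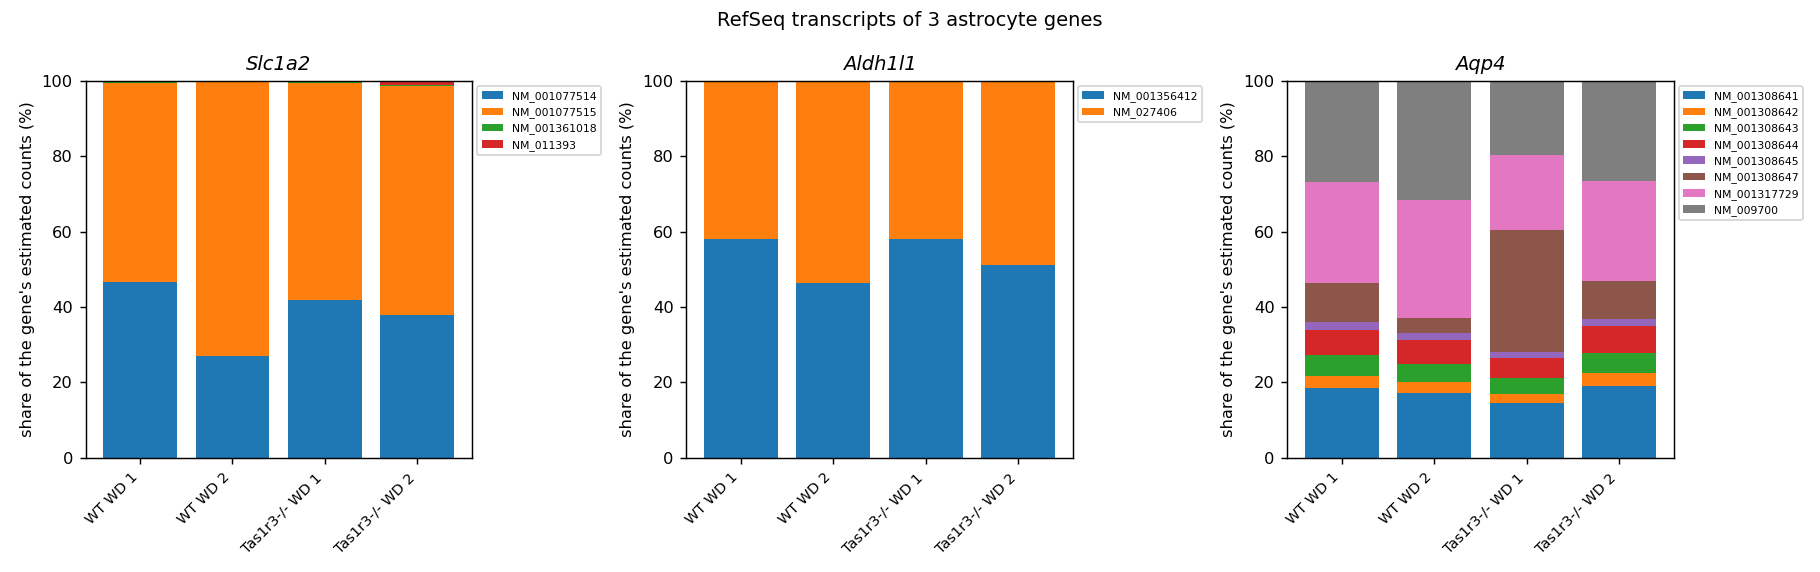
Share of each gene's estimated counts (%) held by its RefSeq transcripts in the 4 libraries, for *Slc1a2*, *Aldh1l1* and *Aqp4*. NM_001077514 of *Slc1a2* is 27.1% in the library labelled WT WD replicate 2, and NM_001308647 of *Aqp4* reaches 32.6% in *Tas1r3*-/- WD replicate 1.

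*Sox9* (ENSMUSG00000000567, chr11:112673009-112678586, plus strand), a transcription factor that starts gliogenesis and is kept by adult astrocytes, had the largest fold change of the 10 genes over all 4 libraries. It stood at 63.9 and 61.5 CPM in WT WD, close together although the 2 libraries differed in regional markers. In *Tas1r3*-/- WD it stood at 51.6 and 41.4 CPM, both below WT WD. The log2 fold change was -0.43 (SE 0.16, 95% interval -0.83 to -0.03), with an unadjusted p of 0.0406 and an adjusted p of 0.756 by edgeR. It was -0.46 without the library labelled WT WD replicate 2 (adjusted p by edgeR 0.256), and between -0.60 and -0.29 whichever library was left out. The sign was kept in each of these fits, which follows from groups that do not overlap, and the call was made in none.

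*Aldh1l1* (ENSMUSG00000030088, chr6:90463409-90577185, plus strand), an enzyme of folate metabolism used as a general astrocyte marker, stood at 68.9 and 84.9 CPM in WT WD and at 68.6 and 65.9 CPM in *Tas1r3*-/- WD. The groups did not overlap, but WT WD replicate 1 and *Tas1r3*-/- WD replicate 1 were nearly equal. The log2 fold change was -0.19 (SE 0.15, adjusted p by edgeR 0.774) and -0.03 without the library labelled WT WD replicate 2 (adjusted p by edgeR 0.926). The ratio of *Gfap* to *Aldh1l1* CPM, a filament gene against a general marker, was 4.94 and 2.19 in the WT WD libraries and 5.32 and 3.85 in *Tas1r3*-/- WD. It was lowest in the library labelled WT WD replicate 2 and overlapped between genotypes.

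The remaining genes were nearly level over the 4 libraries. *Gja1* (ENSMUSG00000050953, chr10:56253241-56278609, plus strand), which codes for connexin 43, the main gap junction protein of astrocytes, stood at 208 and 235 CPM in WT WD and at 224 and 222 CPM in *Tas1r3*-/- WD. This is a log2 fold change of 0.01 (SE 0.13, 95% interval -0.34 to 0.35, adjusted p by edgeR 0.992). *S100b* (ENSMUSG00000033208, chr10:76085090-76097159, plus strand), a calcium-binding protein that astrocytes release, stood at 162 and 143 CPM in WT WD and at 150 and 162 CPM in *Tas1r3*-/- WD, a log2 fold change of 0.03 (SE 0.14, 95% interval -0.33 to 0.39, adjusted p by edgeR 0.958). *Agt* (ENSMUSG00000031980, chr8:125279301-125296716, minus strand) codes for angiotensinogen, the precursor of angiotensin, which astrocytes make in the brain. It stood at 421 and 374 CPM in WT WD and at 410 and 407 CPM in *Tas1r3*-/- WD, with a log2 fold change of 0.04 (SE 0.13, 95% interval -0.30 to 0.38, adjusted p by edgeR 0.947). Without the library labelled WT WD replicate 2 the values were 0.10, -0.05 and -0.04. For these 3 genes the 95% intervals with 4 libraries do not hold a change of 1.5-fold in either direction.

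Some counts may be shared with neighbours on the opposite strand. Of the exon bases of *Agt*, 2450 of 8257 overlap *Cog2*, and of those of *Sox9*, 542 of 4176 overlap *BC006965*. The overlap was 520 of 8516 bases with *Gm15756* for *Aldh1l1* and 319 of 13994 bases with *Gm13872* for *Slc1a2*. Whether counting used strand is not given in the sources used here, and without it reads of such partners cannot be told apart.

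The replicates of a genotype differed unequally. Over the 10 genes the median log2 difference between WT WD libraries was 0.23 in size, against 0.07 between *Tas1r3*-/- WD libraries. Over all genes these medians were 0.29 and 0.15. *Gfap* and *Aqp4* differed by at least 1.5-fold between the WT WD libraries, where 24% of all genes did, and 0 of 10 did so between the *Tas1r3*-/- WD libraries, where 8.3% of all genes did. The library labelled WT WD replicate 2 was the highest or lowest of the 4 for 8 of the 10 genes, where it was so for 68.5% of all genes. It was lowest for 5 genes, *Gfap*, *Slc1a3*, *S100b*, *Glul* and *Agt* (34.6% of all genes), and highest for 3, *Aqp4*, *Aldh1l1* and *Gja1* (33.9% of all genes). On the log2 scale it differed from the mean of the other 3 libraries by -0.77 for *Gfap*, -0.52 for *Slc1a3*, 0.68 for *Aqp4* and 0.32 for *Aldh1l1*. The 10 genes did not therefore shift together in that library.

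Without the library labelled WT WD replicate 2, the remaining WT WD library was set against both *Tas1r3*-/- WD libraries, on the assumption that it varies as they do. The means of 4 genes were higher and those of 6 lower in *Tas1r3*-/- WD, with a median log2 fold change of -0.04. *Aqp4*, *Slc1a2*, *Gja1* and *Glul* lay above in both libraries and *Slc1a3*, *Aldh1l1*, *Sox9* and *Agt* below, where 37.5% of all genes lay above and 37.5% below. By edgeR 0 of the 10 genes were called in this fit, where 0.217% of 14714 genes were called. At an unadjusted p under 0.05 there were 3 of the 10 (*Slc1a2*, *Glul* and *Sox9*) and 2012 of all genes. The highest level of a gene was a median 1.13 times its lowest over these 3 libraries, and 1.29 times over all 4. For all genes the same ratios were 1.23 and 1.42.

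Genes of the pathways around the 10 were counted from lists drawn up by function, with some genes on more than 1 list. With all 4 libraries, edgeR and DESeq2 called 0 genes of each list reported here, and over all genes 20.6% lay above and 19% below WT WD in both *Tas1r3*-/- WD libraries. Without the library labelled WT WD replicate 2, 37.5% of all genes lay above and 37.5% below. Of 8 pan-reactive genes tested, those raised in astrocytes by many kinds of injury, 4 lay above and 1 below, with a median log2 fold change of 0.55. Leaving out the library labelled WT WD replicate 2 gave 5 above and 2 below, with a median of 0.40. *Osmr*, the receptor subunit for oncostatin M, stood at 2.23 and 2.80 CPM in WT WD and at 5.94 and 6.84 CPM in *Tas1r3*-/- WD, with a log2 fold change of 1.33 (adjusted p by edgeR 0.756), and of 1.51 without that library. *Serpina3n*, a protease inhibitor and one of the most abundant genes of the list, stood at 89.0 and 25.4 CPM in WT WD and at 85.6 and 81.0 CPM in *Tas1r3*-/- WD. Like *Gfap*, it was lowest in the library labelled WT WD replicate 2, and its log2 fold change was 0.54 with that library and -0.09 without it. *Vim*, the filament vimentin, stood at 77.5 and 93.6 CPM in WT WD and lower, at 74.1 and 68.0 CPM, in *Tas1r3*-/- WD (log2 fold change -0.27, and -0.12 without that library).

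**Figure D5:**
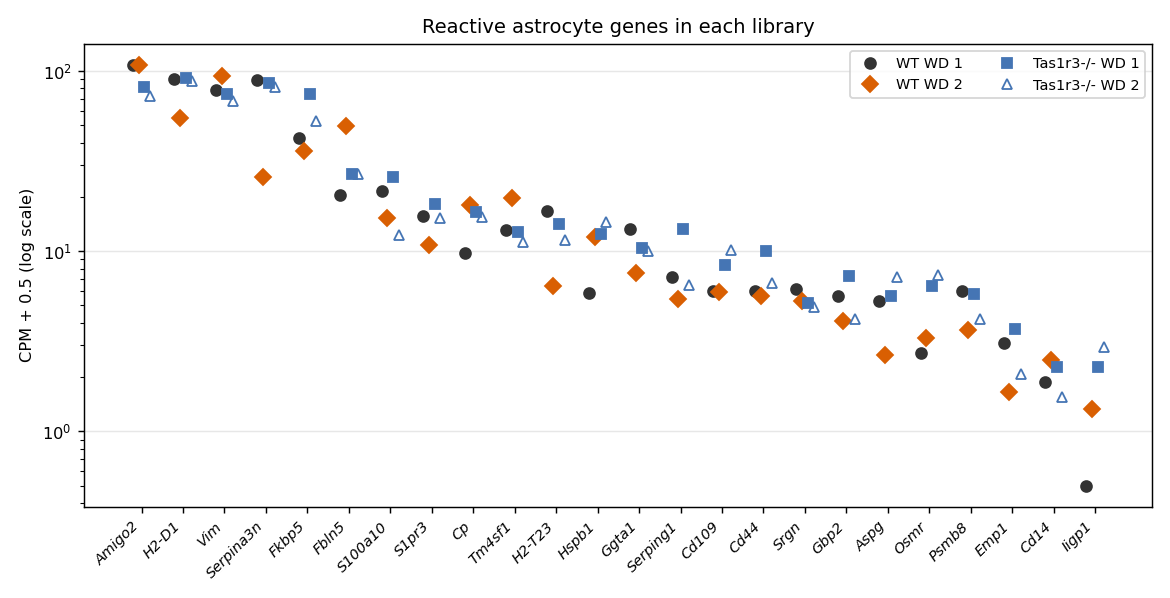
CPM plus 0.5 (log axis) of 24 genes of reactive astrocytes (pan-reactive, A1-type and A2-type), ordered by mean level, with 1 symbol for each library. *Osmr* and *Fkbp5* are higher and *Amigo2* lower in both *Tas1r3*-/- WD libraries (blue), and *Serpina3n* is low in the library labelled WT WD replicate 2 (orange).

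Of 11 A1-type genes, those raised by inflammatory stimuli, 2 lay above and 2 below in both *Tas1r3*-/- WD libraries (20.6% and 19% over all genes), with a median log2 fold change of 0.15. With WT WD replicate 2 left out, the counts were 3 above and 5 below (37.5% each over all genes), with a median of -0.01. *Fkbp5*, a chaperone of the glucocorticoid receptor that glucocorticoids induce, stood at 41.9 and 35.4 CPM in WT WD and at 74.4 and 52.4 CPM in *Tas1r3*-/- WD (log2 fold change 0.71, adjusted p by edgeR 0.756, and 0.60 without that library). *Amigo2*, an adhesion protein, stood at 107 CPM in both WT WD libraries and at 81.3 and 71.9 CPM in *Tas1r3*-/- WD (log2 fold change -0.49 with and without that library). *H2-D1*, a major histocompatibility gene, stood at 89.3 and 54.0 CPM in WT WD and at 90.4 and 87.0 CPM in *Tas1r3*-/- WD, and was low in the library labelled WT WD replicate 2 alone. Of 5 A2-type genes tested, 1 lay above and 1 below, with a median log2 fold change of 0.06. Without that library 6 were tested, with 2 above, 1 below and a median of -0.02.

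Of 22 gliosis signalling genes tested, 12 lay above and 3 below in both *Tas1r3*-/- WD libraries (20.6% and 19% over all genes), with a median log2 fold change of 0.28. Once WT WD replicate 2 was left out, there were 13 above and 6 below (37.5% each over all genes), with a median of 0.24. *Stat3*, the transcription factor of this pathway, stood at 109 and 76.8 CPM in WT WD and at 122 and 120 CPM in *Tas1r3*-/- WD (log2 fold change 0.38, and 0.15 without that library). *C3*, a complement component, stood at 5.84 and 5.27 CPM in WT WD and at 12.9 and 7.54 CPM in *Tas1r3*-/- WD (log2 fold change 0.88, adjusted p by edgeR 0.756, and 0.81 without that library). *Tnc*, the matrix protein tenascin C, differed most in the list and was lower in *Tas1r3*-/- WD. It stood at 6.36 and 23.1 CPM in WT WD and at 4.82 and 4.91 CPM in *Tas1r3*-/- WD (log2 fold change -1.59, adjusted p by edgeR 0.756), and the value was -0.38 without the library with the high level. *Cntfr*, the receptor for ciliary neurotrophic factor, was lower too, at 145 and 164 CPM in WT WD and at 120 and 139 CPM in *Tas1r3*-/- WD (log2 fold change -0.25, and -0.16 without that library). The shift with transcript length given for *Slc1a2* covers these lists too, and its part in their counts was not tested.

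Of 15 endfoot and potassium buffering genes, 7 lay above and 3 below in both *Tas1r3*-/- WD libraries (20.6% and 19% over all genes), with a median log2 fold change of 0.06. Leaving out the library labelled WT WD replicate 2 gave 9 above and 5 below (37.5% each over all genes), with a median of 0.09. *Utrn*, utrophin, a scaffold protein related to dystrophin, stood at 69.7 and 51.6 CPM in WT WD and at 89.5 and 92.6 CPM in *Tas1r3*-/- WD (log2 fold change 0.59, adjusted p by edgeR 0.756, and 0.38 without that library). *Dmd* codes for dystrophin, part of the complex that anchors the AQP4 protein at endfeet, and stood at 50.3 and 41.7 CPM in WT WD and at 69.2 and 56.8 CPM in *Tas1r3*-/- WD (log2 fold change 0.45, adjusted p by edgeR 0.756, and 0.33 without that library). *Agrn*, the matrix protein agrin, and *Clcn2*, a chloride channel, were lower in *Tas1r3*-/- WD. *Agrn* stood at 257 and 281 CPM in WT WD and at 233 and 238 CPM in *Tas1r3*-/- WD (log2 fold change -0.19, and -0.12 without that library). *Clcn2* stood at 52.4 and 53.4 CPM in WT WD and at 41.6 and 43.5 CPM in *Tas1r3*-/- WD (log2 fold change -0.31, and -0.30 without that library).

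Of 18 other genes of glutamate and GABA handling, 6 lay above and 3 below in both *Tas1r3*-/- WD libraries (20.6% and 19% over all genes). With WT WD replicate 2 left out, the counts were 8 above and 6 below (37.5% each over all genes), and the median log2 fold change was 0.02 with and without it. *Slc6a11*, the GABA transporter of astrocytes, stood at 711 and 658 CPM in WT WD and at 696 and 699 CPM in *Tas1r3*-/- WD. *Gad1*, which makes GABA in neurons, stood at 402 and 46.1 CPM in WT WD and at 412 and 422 CPM in *Tas1r3*-/- WD, and its log2 fold change was 0.90 with the low library and 0.05 without it. *Got2*, a mitochondrial aminotransferase of glutamate and aspartate, was lower in *Tas1r3*-/- WD, at 253 and 345 CPM in WT WD and at 239 and 244 CPM in *Tas1r3*-/- WD (log2 fold change -0.31, and -0.07 without that library). *Slc38a2*, a transporter of neutral amino acids including glutamine, was chosen after its values were seen, as the gene of the list called without the library labelled WT WD replicate 2. It stood at 96.5 and 100.2 CPM in WT WD and at 164 and 168 CPM in *Tas1r3*-/- WD. With all 4 libraries it had a log2 fold change of 0.76 (adjusted p by edgeR 0.756), and of 0.78 (SE 0.11, adjusted p by edgeR 0.0340) without that library.

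Of 18 gliogenic transcription factors, 3 lay above and 6 below in both *Tas1r3*-/- WD libraries (20.6% and 19% over all genes), with a median log2 fold change of -0.08. Once WT WD replicate 2 was left out, there were 6 above and 8 below (37.5% each over all genes), with a median of -0.07. *Id3*, an inhibitor of helix-loop-helix factors, stood at 31.6 and 48.3 CPM in WT WD and at 22.0 and 16.3 CPM in *Tas1r3*-/- WD (log2 fold change -1.06, adjusted p by edgeR 0.756, and -0.72 without that library). *Zbtb20*, a zinc finger factor, was higher in *Tas1r3*-/- WD, at 6.87 and 2.47 CPM in WT WD and at 13.5 and 10.7 CPM in *Tas1r3*-/- WD (log2 fold change 1.37, adjusted p by edgeR 0.756, and 0.82 without that library). The 4 SOX factors of the list, the family of *Sox9*, were chosen after their values were seen. *Sox2* (log2 fold change -0.49, and -0.52 without that library) and *Sox10* (-0.37 and -0.45) lay below in both *Tas1r3*-/- WD libraries, whereas *Sox8* (-0.16 and -0.11) and *Sox21* (0.12 and -0.10) overlapped between genotypes, and none was called with or without that library.

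Among 10 connexin and gap junction genes tested, 5 lay above and 1 below in both *Tas1r3*-/- WD libraries (20.6% and 19% over all genes), with a median log2 fold change of 0.11. Leaving out the library labelled WT WD replicate 2 gave 7 above and 1 below (37.5% each over all genes), with a median of 0.19. *Gjb6*, connexin 30, the second connexin of astrocytes, stood at 95.7 and 113 CPM in WT WD and at 113 and 124 CPM in *Tas1r3*-/- WD (log2 fold change 0.18, and 0.31 without that library). *Tjp1*, a junction scaffold, stood at 75.9 and 79.3 CPM in WT WD and at 97.4 and 104 CPM in *Tas1r3*-/- WD (log2 fold change 0.37, and 0.40 without that library). *Gjb1*, a connexin of oligodendrocytes, was lower, at 13.4 and 17.5 CPM in WT WD and at 10.4 and 11.2 CPM in *Tas1r3*-/- WD (log2 fold change -0.51, and -0.31 without that library).

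Of 8 renin-angiotensin genes tested around *Agt*, 4 lay above and 1 below in both *Tas1r3*-/- WD libraries (20.6% and 19% over all genes), with a median log2 fold change of 0.02. With WT WD replicate 2 left out, the counts were 5 above and 1 below (37.5% each over all genes), with a median of 0.16. *Lnpep*, an aminopeptidase that binds angiotensin IV, stood at 22.2 and 14.5 CPM in WT WD and at 33.6 and 31.6 CPM in *Tas1r3*-/- WD (log2 fold change 0.83, and 0.56 without that library). *Enpep*, the aminopeptidase that acts on angiotensin II, was lower, at 4.98 and 5.27 CPM in WT WD and at 3.53 and 4.56 CPM in *Tas1r3*-/- WD (log2 fold change -0.34, and -0.30 without that library). Of 10 folate enzymes tested around *Aldh1l1*, 0 lay above and 3 below, with a median log2 fold change of 0.00. Without that library these were 1 above and 7 below, with a median of -0.18.

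Of the 34 other astrocyte genes, 6 lay above and 9 below in both *Tas1r3*-/- WD libraries (20.6% and 19% over all genes), with a median log2 fold change of -0.01. Once WT WD replicate 2 was left out, there were 9 above and 19 below (37.5% each over all genes), with a median of -0.05. *Mt3*, a metallothionein that binds zinc, stood at 253 and 312 CPM in WT WD and at 209 and 201 CPM in *Tas1r3*-/- WD (log2 fold change -0.46, adjusted p by edgeR 0.756, and -0.31 without that library). *Dio2*, which activates thyroid hormone and is made in astrocytes and tanycytes, stood at 9.79 and 15.8 CPM in WT WD and at 23.9 and 20.3 CPM in *Tas1r3*-/- WD (log2 fold change 0.79, adjusted p by edgeR 0.756, and 1.18 without that library). The most abundant genes of the list, *Sparcl1* and *Apoe*, had log2 fold changes of 0.03 and 0.01, and of -0.01 and -0.13 without that library.

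Astrocytes also differ by brain region. The 4 genes of diencephalic astrocytes (*Slc6a11*, *Itih3*, *Slc6a9* and *Sparc*) had their lowest sum, 2421 CPM, in the library labelled WT WD replicate 2. The sum was 3754 CPM in WT WD replicate 1, 3226 CPM in *Tas1r3*-/- WD replicate 1 and 3668 CPM in replicate 2. In the library with the lowest sum, 3 of the 4 were at their lowest, *Sparc* among them at 1378 CPM. *Slc6a9* was at its highest there, at 154 CPM against 119 to 131 CPM elsewhere. With all 4 libraries, 0 lay above and 1 below in both *Tas1r3*-/- WD libraries, with a median log2 fold change of 0.12. Without that library all 4 lay below (37.5% over all genes), with a median of -0.11.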

How the data were processed

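RNA of hypothalamus tissue, depleted of ribosomal RNA, was made into Ion Torrent libraries, 2 of WT WD and 2 of *Tas1r3*-/- WD. The authors aligned reads with STAR in Partek Flow to mm39 and quantified RefSeq release 93, and deposited estimated counts of transcripts, not normalized, of which 13.0% are whole. The tests had been laid out for counts of genes. The 4 single-sample tables repeat the table of all samples. Of 30930 transcripts, 30891 were matched to a RefSeq gene name and summed to 16339 genes, and the sums were rounded. The other 39 were left out, of which the largest held 0.242 to 2.34% of a library.

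Gene positions and lengths are from GENCODE M39 on GRCm39. Genes were tested with edgeR 4.0.16 (quasi-likelihood test, TMM, filterByExpr, Benjamini-Hochberg adjustment over 14344 genes) in R 4.3.3. The rule for a call was that of the study, whose methods name DESeq2. DESeq2 1.42.0, limma-trend (limma 3.58.1), RLE factors, total counts, other filters, a replicate block and leaving out each library were alternatives. DESeq2 with a replicate block was added after the data were seen. Statistics were tested on simulated data. Figures were drawn with matplotlib 3.10.9.

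The 10 genes, the lists around them and the motifs were chosen with earlier results of these data known. Named from each list were genes of at least 1 CPM whose groups do not overlap with the largest changes (at most 2 higher and 2 lower), and the 2 most abundant. From marker lists the 3 most abundant could be named, and this was done for choroid plexus alone. For the other marker lists only sums and counts are given. *Slc38a2* and the SOX factors around *Sox9* were named after their values were seen. Some genes that this rule names are not reported here.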

Additional observations from a re-analysis of the deposited data

How the results depend on the processing

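With all 4 libraries, the 10 genes kept the direction of their difference and stayed uncalled under RLE factors, total counts, DESeq2, limma-trend, both other filters and both fits with a replicate block. Of 120 values (10 genes under 12 alternatives), 109 kept direction and side of the threshold, 2 passed it, and 9 changed sign, all 11 of these on leaving out 1 library. Left out in turn, the libraries gave log2 fold changes of -0.14 to 0.74 for *Gfap*, -0.61 to 0.19 for *Aqp4*, -0.059 to 0.51 for *Slc1a3*, -0.073 to 0.10 for *Gja1*, -0.055 to 0.13 for *S100b* and -0.044 to 0.13 for *Agt*. *Sox9* (-0.60 to -0.29), *Aldh1l1* (-0.33 to -0.03), *Slc1a2* (0.09 to 0.36) and *Glul* (0.19 to 0.29) kept their sign. These are the genes whose groups did not overlap. A kept sign follows from that and adds nothing to it. Between 0 and 2 of the 10 genes were called in these fits, the 2 being *Gfap* and *Aqp4* without WT WD replicate 1.

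Over all genes edgeR called 0 (772 at an unadjusted p under 0.05), DESeq2 called 8 and DESeq2 with a replicate block 11. Leaving out each library gave 0 to 2122 genes, the 2122 without WT WD replicate 1, and 32 when replicate 2 of WT WD was left out. The lone library is then assumed to vary like the other group. The cause of these shifts was not tested. Same-numbered libraries share only a number (correlation of deviations 0.0821 over 14344 genes), and edgeR with the replicate block called 0 genes (667 at an unadjusted p under 0.05).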
